A study of Mus musculus with 116 samples.

Results

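Ribosome biogenesis factors are the proteins that transcribe ribosomal RNA, cut and modify it, and fold it with ribosomal proteins into the small and the large subunit. The list followed here has 39 such genes, chosen by name, and a gene was taken as measured where a probe of the array carries its symbol or an older alias as its only symbol. That held for 31 of the 39 genes, of 15096 genes with a symbol in the whole series. Rrp12, Dkc1, Gnl3, Utp18, Wdr36, Heatr1, Tsr1 and Noc4l were not analysed here. Ncl and Ebna1bp2 had 2 probes each, which were averaged, and the other genes had 1.

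The cells were FDB1, a mouse myeloid progenitor line that needs a growth factor. In FDB1, interleukin-3 (IL-3) is known to sustain growth, and granulocyte-macrophage colony-stimulating factor (GM-CSF) to bring about maturation into granulocytes and macrophages. RNA was compared on 58 dye-swapped pairs of 2-colour spotted arrays, in 18 conditions with 2 RNAs each. All cells were first grown with 500 U/mL IL-3 in medium that held 10% fetal calf serum, and 0 h is the time at which IL-3 was taken away. V449E cells carry the V449E receptor mutant and were then kept without any factor for 6, 12, 24, 48 or 72 h. FI-Delta cells carry the FI-Delta receptor mutant and were kept without factor for the same times. GM-CSF cells are FDB1 cells without a mutant receptor that were moved to 500 U/mL GM-CSF for the same times. Parental cells are FDB1 cells in IL-3 at 0 h, and they serve as the 0 h point of the GM-CSF course. The labels name this 0 h sample after GM-CSF on print run 1 of the arrays and after IL-3 on print run 2; it was taken as 1 condition because the series' design text treats the names as equivalent, and every GM-CSF difference rests on that. The labels do not say whether the mutant lines are clones or pools, nor whether the 2 RNAs of a condition came from separate cultures, so the p-values below measure only the spread between these RNAs.

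Ribosomal RNA is made by RNA polymerase I in the nucleolus. Small nucleolar RNA-protein particles (snoRNPs) of the box C/D and box H/ACA kinds guide its methylation and pseudouridylation, and separate sets of factors mature each subunit. The pathway is known to be active in growing cells and to be under the control of the transcription factor MYC, which binds the sequence CACGTG (an E-box) with its partner MAX.

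The promoter stretches below are shown because Nop2, Wdr43, Pes1 and Nop56 fell in FI-Delta cells at 72 h, while Imp4 holds the motif and did not pass the test there. They come from RefSeq (mouse build GRCm38.p6), run 5' to 3' and lie on the + strand, and capitals mark CACGTG, which reads the same on both strands. The stretch of Nop2 is chr6:125131793-125131862, of Wdr43 chr17:71616170-71616238, of Pes1 chr11:3963930-3963998, of Imp4 chr1:34439679-34439748 and of Nop56 chr2:130274322-130274391.
Nop2: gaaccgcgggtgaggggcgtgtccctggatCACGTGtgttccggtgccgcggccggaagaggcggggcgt
Wdr43: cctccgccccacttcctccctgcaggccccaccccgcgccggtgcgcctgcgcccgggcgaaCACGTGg
Pes1: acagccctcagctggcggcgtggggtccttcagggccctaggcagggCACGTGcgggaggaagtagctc
Imp4: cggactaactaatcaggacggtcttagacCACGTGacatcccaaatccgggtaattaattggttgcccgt
Nop56: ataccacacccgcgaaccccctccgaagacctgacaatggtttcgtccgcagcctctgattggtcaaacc
Of the 31 measured genes, 27 had a promoter in the RefSeq table, and 5 of these (18.5%) held CACGTG between 250 bases before and 50 bases after the start of the gene: Pes1, Wdr43, Imp4, Pno1 and Nop2. Over all 27025 genes in the table the share was 8.09%. Relative to the start of the gene, the motif begins at -60 in Nop2, -121 in Imp4, 3 in Pes1, 18 in Wdr43 and 38 in Pno1. Nop56, whose level varied most of the 31 (range 1.71 over the 18 conditions), has no CACGTG in its window. A match describes the letters only.

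Values are given as fitted levels and as differences, both on the log2 scale. The level of an RNA is its value in a least-squares fit over all arrays of its replicate number, relative to the mean of the 18 RNAs with that number. A difference is the mean level of 1 condition minus that of another, and a gene was called where limma's adjusted p for that difference was under 0.05 over all 20242 features tested. The deposited log ratios state neither base nor direction. They were read as log2 of Cy5 over Cy3, the likely direction, since channel 1 is labelled with Cy5 and limma, the tool named by the submitters, puts red over green. The opposite reading would turn every sign below. The arrays give ratios only, so levels of different genes cannot be set against each other, and the cells' identity could not be checked against absolute marker levels. Differences had a median standard error of 0.089. In bulk RNA a fall in a transcript per cell cannot be told apart from a smaller share of cells that hold it.

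The median of the 31 genes followed a course with 2 low points in FI-Delta and GM-CSF cells, at 12 h and at 72 h, with a value nearer to or above 0 h at 24 h. In V449E cells the median showed the early low point, at 6 h and 12 h, and was near 0 from 24 h on. In FI-Delta cells the mean levels at 12 h and at 72 h were each below those at 0 h and at 24 h for 25 of the 31 genes, and in GM-CSF cells for 28; in V449E cells this held for 12. The lowest of the 6 time points was 72 h for 15 genes in FI-Delta cells and for 21 in GM-CSF cells. In V449E cells it was 6 h for 19 genes and 12 h for 9. The shares of all features with these shapes are not given here, so these counts have no background beside them.

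**Figure D1:**
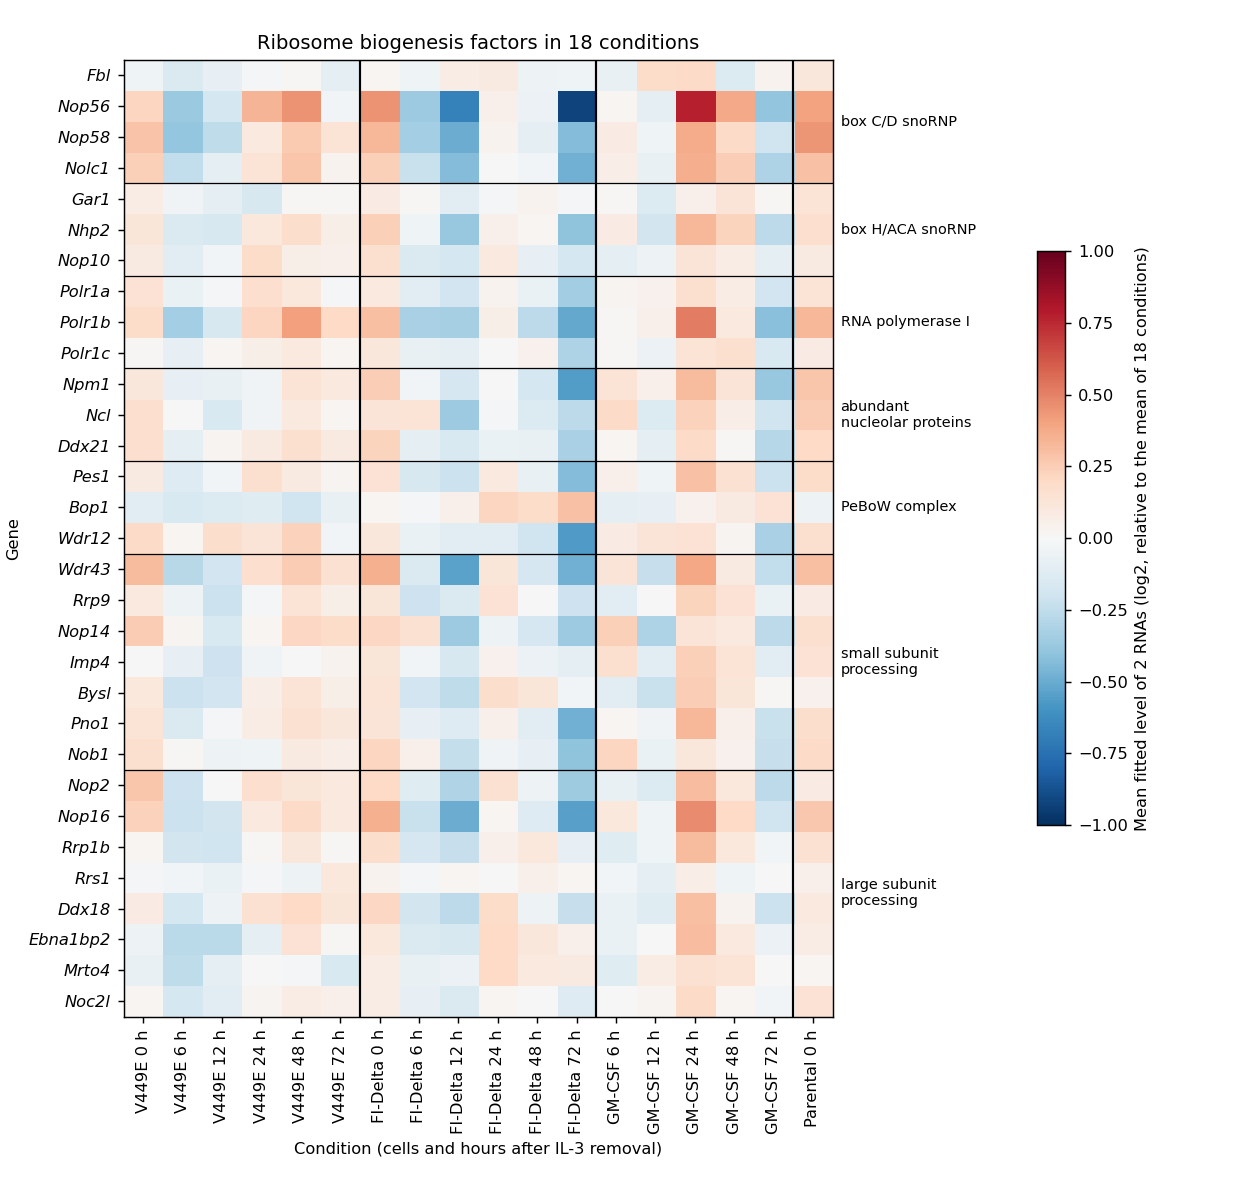
Mean fitted level (log2, colour, relative to the mean of 18 conditions) of the 31 genes, grouped by role, in V449E, FI-Delta and GM-CSF cells by hours after IL-3 removal and in parental cells (0 h). The FI-Delta columns at 12 h and 72 h are the darkest blue, and Fbl, Gar1 and Rrs1 stay pale throughout, with ranges of 0.34, 0.30 and 0.20.

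In V449E cells the median difference of the 31 genes from 0 h was -0.21 at 6 h and -0.21 at 12 h. At 6 h 3 genes fell (Nop58, Wdr43 and Nop2; 0.321% of all features fell), and at 12 h 2 fell (Nop58 and Wdr43; 0.756% of all features). These calls were thin. Without either V449E 0 h RNA, or without replicate 2 of V449E 6 h, 1 gene was called at 6 h, and at 12 h none was called without either 0 h RNA or without replicate 1 of 12 h, and 1 was called without replicate 2 of 12 h. At 24 h the median was -0.04, and limma called 0 of the 31 genes, against 1.38% of all features in either direction. With no adjustment (p under 0.05) 3 genes were lower and 0 higher at 24 h, and 5.32% of all features were lower in that way. A fit that counts pairs of dye-swapped arrays instead of RNAs called 2 lower, and its share of all features is not given here. At 48 h and 72 h the medians were 0.02 and -0.06 and 0 genes were called. The shares of all features called at those times were 0.00494% and 0%, and unadjusted tests gave 1 gene higher at 48 h (3.21% of all features) and 1 lower at 72 h (1.6%).

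In FI-Delta cells the median difference from 0 h was -0.27 at 6 h, -0.38 at 12 h, -0.10 at 24 h, -0.24 at 48 h and -0.45 at 72 h. At 6 h 7 genes fell (0.464% of all features fell), at 12 h 18 (3.36%), at 48 h 6 (1.95%) and at 72 h 21 (8.7%). At 72 h 1 gene, Bop1, rose (6.89% of all features rose). At 24 h 0 genes were called, against 1.54% of all features in either direction, and unadjusted tests gave 10 lower (5.42% of all features) and 1 higher (6.4%). The count at 72 h held between 18 and 21 when each of the 4 RNAs was left out in turn. The earlier counts did not. At 12 h it was 5 without replicate 2 of 12 h and 10 and 9 without replicate 1 and replicate 2 of 0 h. At 6 h it was 1 without replicate 2 of 6 h and 1 and 0 without replicate 1 and replicate 2 of 0 h. At 48 h it was 1 without replicate 1 of 48 h, 4 without replicate 2 of 48 h, and 1 and 0 without replicate 1 and replicate 2 of 0 h.

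In GM-CSF cells the median difference from parental cells was -0.14 at 6 h, -0.22 at 12 h, 0.09 at 24 h, -0.06 at 48 h and -0.34 at 72 h. At 12 h 5 genes fell (1.77% of all features fell), namely Nop58, Ncl, Wdr43, Nop14 and Nob1. None of the 31 was called at 12 h without replicate 1 of GM-CSF 12 h or without replicate 1 of parental cells, and 3 were without replicate 2 of parental cells. At 72 h 16 genes fell (2.64%), and 9 fell without replicate 2 of parental cells. All 16 (100%) were also among the 21 that fell in FI-Delta cells at 72 h, of which they make up 76.2%. The same overlap over all features is not given here, so these percentages have no background beside them. The comparisons share no RNA. Yet all levels of a replicate number were fitted together, on arrays that also set FI-Delta against GM-CSF cells. At 6, 24 and 48 h 0 genes were called, against 0.361%, 1.17% and 1.3% of all features in either direction, and unadjusted tests gave 5 lower at 6 h (5.47% of all features), 5 higher at 24 h (5.98%) and 3 lower at 48 h (4.53%). Replicate 1 of the GM-CSF course was hybridised on print run 1 of the arrays and replicate 2 on print run 2. In the fitted levels the median difference of the 31 genes at 72 h was -0.30 in replicate 1 and -0.37 in replicate 2. Of the genes 27 and 30 were below 0. These levels draw on all arrays of a replicate, so they are not values of single print runs. On the arrays that compared these RNAs directly the medians lay further apart, at -0.20 and -0.16 on run 1 and at -0.40 and -0.49 on run 2.

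**Figure D2:**
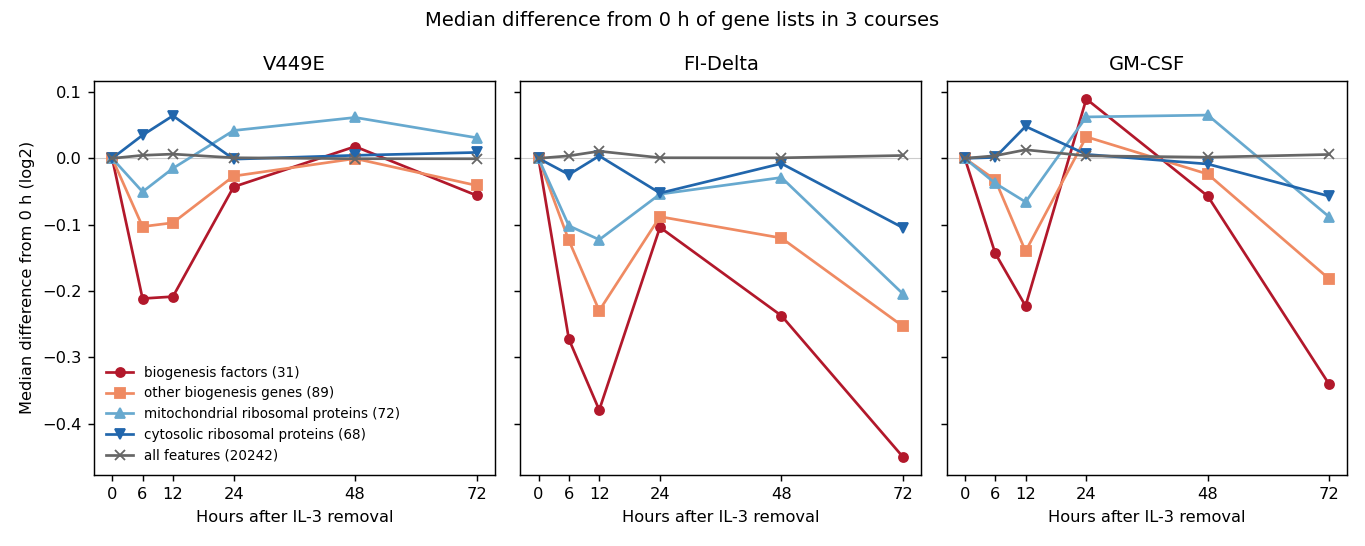
Median difference from 0 h (log2) over hours after IL-3 removal in V449E, FI-Delta and GM-CSF cells, for the 31 biogenesis factors, 89 other biogenesis genes, 72 mitochondrial and 68 cytosolic ribosomal protein genes and all 20242 features. The biogenesis factors lie lowest at 72 h in FI-Delta cells (-0.45) and GM-CSF cells (-0.34), while all features stay near 0.

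The box C/D snoRNP genes held the largest change. Nop56 and Nop58 are the paired core proteins of the particle, Fbl (fibrillarin) is its methyltransferase and Nolc1 (Nopp140) a chaperone of snoRNPs. Nop56 levels were -1.08 and -0.77 in the FI-Delta RNAs at 72 h, against 0.46 and 0.43 at 0 h. The groups did not overlap, and the fall of 1.37 (SE 0.15) corresponds to 2.59-fold (limma, adjusted p = 2.5e-06). At 12 h Nop56 was already at -0.70 and -0.65 (difference -1.12, adjusted p = 0.000122). GM-CSF cells at 72 h held it at -0.44 and -0.35, against 0.32 and 0.48 in parental cells (difference -0.80, adjusted p = 0.00183). V449E cells at 24 h held it at 0.40 and 0.28, against 0.27 and 0.17 at 0 h, a difference of 0.12 that did not pass (adjusted p = 0.963).

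Nop58 levels were -0.49 and -0.38 in FI-Delta cells at 72 h, against 0.29 and 0.37 at 0 h (difference -0.76, SE 0.10, adjusted p = 3.54e-05). The GM-CSF levels at 72 h were -0.17 and -0.23, against 0.45 and 0.43 in parental cells (difference -0.64, adjusted p = 0.000604). Neither pair of groups overlapped. The V449E 24 h difference was -0.18. In V449E cells at 6 h Nop58 was at -0.38 and -0.39, against 0.30 and 0.27 at 0 h (difference -0.67, adjusted p = 0.00195), so this gene fell early in V449E cells too. Nolc1 differed by -0.71 in FI-Delta cells and by -0.60 in GM-CSF cells at 72 h, both called, and by -0.10 in V449E cells at 24 h. Fbl differed by -0.07, -0.08 and 0.04 in the same comparisons and was called in none.

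The box H/ACA particle carries the pseudouridine synthase with Gar1, Nhp2 and Nop10 as its other core proteins. Nhp2 levels were -0.48 and -0.32 in FI-Delta cells at 72 h, against 0.19 and 0.28 at 0 h, with no overlap (difference -0.64, SE 0.10, adjusted p = 0.000185). Nhp2 in GM-CSF cells at 72 h was at -0.32 and -0.20, against 0.17 and 0.17 in parental cells (difference -0.43, adjusted p = 0.0142). The GM-CSF call was lost without any 1 of 3 RNAs: replicate 1 of GM-CSF 72 h and either parental RNA. Nop10 levels were -0.22 and -0.12 in FI-Delta cells at 72 h, against 0.11 and 0.21 at 0 h (difference -0.33, SE 0.09, adjusted p = 0.0104), a call that was lost without replicate 2 of 0 h or replicate 1 of 72 h. The GM-CSF 72 h difference of Nop10 was -0.18 and did not pass. Gar1 differed by -0.10 in FI-Delta and -0.13 in GM-CSF cells at 72 h and was called in neither. At 24 h in V449E cells Nhp2, Nop10 and Gar1 differed by -0.02, 0.09 and -0.23, none called.

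RNA polymerase I makes the ribosomal RNA precursor. Polr1a and Polr1b encode its largest and second-largest subunit, and Polr1c a subunit it shares with RNA polymerase III. Polr1b levels were -0.44 and -0.59 in FI-Delta cells at 72 h, against 0.36 and 0.24 at 0 h (difference -0.82, SE 0.13, adjusted p = 0.000228). Its GM-CSF levels at 72 h were -0.41 and -0.43, against 0.27 and 0.40 in parental cells (difference -0.75, adjusted p = 0.00125). The RNAs did not overlap in either comparison. Polr1a levels were -0.43 and -0.27 in FI-Delta cells at 72 h, against 0.17 and 0.03 at 0 h (difference -0.45, SE 0.09, adjusted p = 0.00108), and the GM-CSF 72 h difference was -0.33 (adjusted p = 0.0274), a call lost without replicate 1 of GM-CSF 72 h or replicate 2 of parental cells. Polr1c fell by 0.42 in FI-Delta cells at 72 h, and its GM-CSF 72 h difference of -0.24 did not pass. The V449E differences at 24 h were 0.02 (Polr1a), 0.03 (Polr1b) and 0.05 (Polr1c), none called. Polr1b had differed by -0.52 at 6 h and by -0.34 at 12 h in V449E cells, which did not pass (limma, adjusted p = 0.0761 and 0.261). The RNAs of Polr1b did not overlap with those of 0 h. With 2 RNAs per condition this also held for small differences, such as Gar1 at 6 h (-0.10, not called).

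Npm1 (nucleophosmin), Ncl (nucleolin) and Ddx21, an RNA helicase, are abundant proteins of the nucleolus. Npm1 levels were -0.46 and -0.66 in FI-Delta cells at 72 h, against 0.23 and 0.27 at 0 h (difference -0.81, SE 0.09, adjusted p = 5.22e-06). The GM-CSF levels of Npm1 at 72 h were -0.37 and -0.39, against 0.29 and 0.26 in parental cells (difference -0.66, adjusted p = 0.000137). Both GM-CSF RNAs lay clearly below both parental RNAs, and the FI-Delta RNAs likewise below those of 0 h. Ddx21 levels were -0.34 and -0.31 in FI-Delta cells at 72 h, against 0.19 and 0.26 at 0 h (difference -0.55, SE 0.09, adjusted p = 0.000296), and its GM-CSF 72 h difference was -0.48 (adjusted p = 0.00265). Ncl fell by 0.39 in FI-Delta and by 0.45 in GM-CSF cells at 72 h as the mean of 2 probes. The FI-Delta call of Ncl was lost without replicate 1 of 72 h, and the GM-CSF calls of Ncl and Ddx21 without replicate 2 of parental cells. The Ncl probes differed in size: 1 gave -0.61 and -0.58 in FI-Delta and GM-CSF cells, and the other -0.16 and -0.32. The probe with the smaller falls was called in neither comparison (limma over single probes, adjusted p = 0.598 and 0.35). The V449E differences at 24 h of Npm1, Ncl and Ddx21 were -0.15, -0.21 and -0.08, none called.

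**Figure D3:**
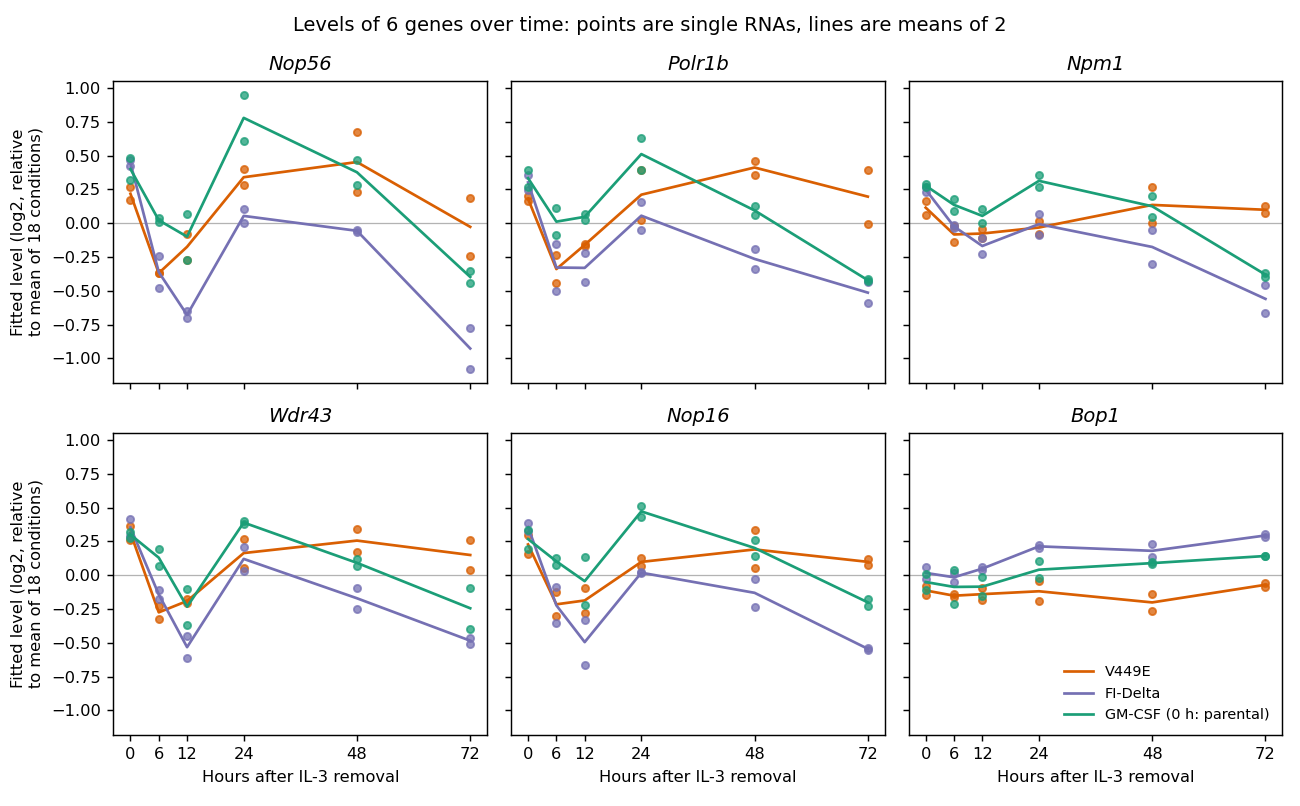
Fitted levels (log2, relative to the mean of 18 conditions) of Nop56, Polr1b, Npm1, Wdr43, Nop16 and Bop1 over hours after IL-3 removal in V449E, FI-Delta and GM-CSF cells, with parental cells as the 0 h point of GM-CSF; points are single RNAs and lines join the means of 2. The first 5 genes lie below 0 at 72 h in FI-Delta and GM-CSF cells, and Bop1 is highest at 72 h in FI-Delta cells (0.30 and 0.29).

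The PeBoW complex joins Pes1, Bop1 and Wdr12 and is needed for maturation of the large subunit. Its 3 genes did not move together. Wdr12 levels were -0.45 and -0.68 in FI-Delta cells at 72 h, against 0.11 and 0.12 at 0 h (difference -0.68, SE 0.10, adjusted p = 5.52e-05), and the GM-CSF 72 h difference was -0.49 (adjusted p = 0.00311; not called without replicate 2 of parental cells). Pes1 differed by -0.57 in FI-Delta cells (adjusted p = 4.83e-05) and by -0.40 in GM-CSF cells (adjusted p = 0.00382). Bop1 levels were 0.30 and 0.29 in FI-Delta cells at 72 h, against -0.03 and 0.06 at 0 h. The groups did not overlap, and Bop1 rose by 0.28 (SE 0.08, adjusted p = 0.0161), but this call was lost without either 72 h RNA or without replicate 1 of 0 h. Bop1 in GM-CSF cells at 72 h was at 0.14 and 0.14, against -0.11 and 0.01 in parental cells, a difference of 0.19 that did not pass (adjusted p = 0.178). The V449E 24 h differences of Wdr12, Pes1 and Bop1 were -0.06, 0.06 and -0.01, none called.

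Of 7 measured factors of small subunit maturation, 5 fell in FI-Delta cells at 72 h (8.7% of all features fell) and 3 in GM-CSF cells (2.64%). Wdr43, a subunit of the large processome that assembles on the ribosomal RNA precursor, was at -0.51 and -0.46 in FI-Delta cells at 72 h, against 0.29 and 0.42 at 0 h (difference -0.84, SE 0.11, adjusted p = 1.75e-05). Its GM-CSF levels at 72 h were -0.09 and -0.39, against 0.32 and 0.28 in parental cells (difference -0.54, adjusted p = 0.00304). Neither GM-CSF RNA reached the parental values, and the call was lost without the lower of them, replicate 2. Nob1, the endonuclease that makes the final cut of 18S rRNA, was at -0.46 and -0.34 in FI-Delta cells at 72 h, against 0.20 and 0.23 at 0 h (difference -0.62, SE 0.07, adjusted p = 2.69e-06), and differed by -0.42 in GM-CSF cells (adjusted p = 0.000417). Pno1, an assembly factor that works beside Nob1, fell by 0.61 in FI-Delta and 0.40 in GM-CSF cells, the GM-CSF call being lost without replicate 2 of 72 h or either parental RNA. Nop14 and Rrp9, a protein of the U3 snoRNP, fell by 0.57 and 0.32 in FI-Delta cells, and their GM-CSF differences of -0.42 and -0.15 did not pass. The Rrp9 call was lost without either 72 h RNA or without replicate 2 of 0 h. Imp4, another U3 protein, and Bysl (bystin) were not called at 72 h: Imp4 differed by -0.21 and -0.25, and Bysl by -0.17 and -0.03, in FI-Delta and in GM-CSF cells. The 7 genes differed by -0.23 (Nop14), -0.20 (Nob1), -0.15 (Wdr43), -0.12 (Rrp9), -0.07 (Pno1), -0.04 (Imp4) and -0.03 (Bysl) in V449E cells at 24 h, none called.

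Of 8 measured factors of large subunit maturation, 3 fell in FI-Delta cells at 72 h (8.7% of all features fell) and 2 in GM-CSF cells (2.64%). Nop16 levels were -0.55 and -0.54 in FI-Delta cells at 72 h, against 0.38 and 0.33 at 0 h (difference -0.90, SE 0.12, adjusted p = 2.61e-05). The GM-CSF levels of Nop16 at 72 h were -0.23 and -0.17, against 0.20 and 0.34 in parental cells (difference -0.47, adjusted p = 0.0201), a call that was lost when any 1 of the 4 RNAs was left out. Nop2, a methyltransferase of 28S rRNA, was at -0.39 and -0.33 in FI-Delta cells at 72 h, against 0.27 and 0.13 at 0 h (difference -0.56, SE 0.10, adjusted p = 0.000609), and its GM-CSF difference of -0.34 did not pass (adjusted p = 0.0529). Ddx18, an RNA helicase, fell by 0.44 in FI-Delta and by 0.31 in GM-CSF cells, and its GM-CSF call was likewise lost without any 1 RNA. The other 5 genes were not called at 72 h in FI-Delta or GM-CSF cells, with differences of -0.26 and -0.18 for Rrp1b, -0.20 and -0.17 for Noc2l, -0.01 and -0.05 for Rrs1, and 0.02 and -0.02 for Mrto4.

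The fifth of them, Ebna1bp2, was at 0.03 and 0.07 in FI-Delta cells at 72 h, against 0.18 and 0.04 at 0 h, and differed by -0.06 there and by -0.14 in GM-CSF cells at 72 h. These values average 2 probes of opposite sign: in FI-Delta cells at 72 h 1 probe differed by -0.35 (adjusted p = 0.038 over single probes) and the other by 0.23 (adjusted p = 0.264). The mean therefore describes neither probe. In V449E cells at 24 h the 8 genes differed by -0.13 (Nop16), -0.11 (Nop2), 0.07 (Ddx18), -0.01 (Rrp1b), 0.00 (Noc2l), 0.00 (Rrs1), 0.07 (Mrto4) and -0.04 (Ebna1bp2), none called.

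The 24 h values of V449E cells come from another time than the 72 h values of FI-Delta and GM-CSF cells, and by 24 h the FI-Delta median too was at -0.10. In V449E cells at 6 h the role groups had medians of -0.53 (box C/D), -0.20 (box H/ACA), -0.21 (RNA polymerase I), -0.20 (nucleolar proteins), -0.18 (PeBoW), -0.23 (small subunit) and -0.21 (large subunit). Nop56 differed by -0.59 at 6 h there and did not pass (adjusted p = 0.0645). At 72 h, the time that matches the other courses, the 31 differences in V449E cells ran from -0.25 to 0.12.

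**Figure D4:**
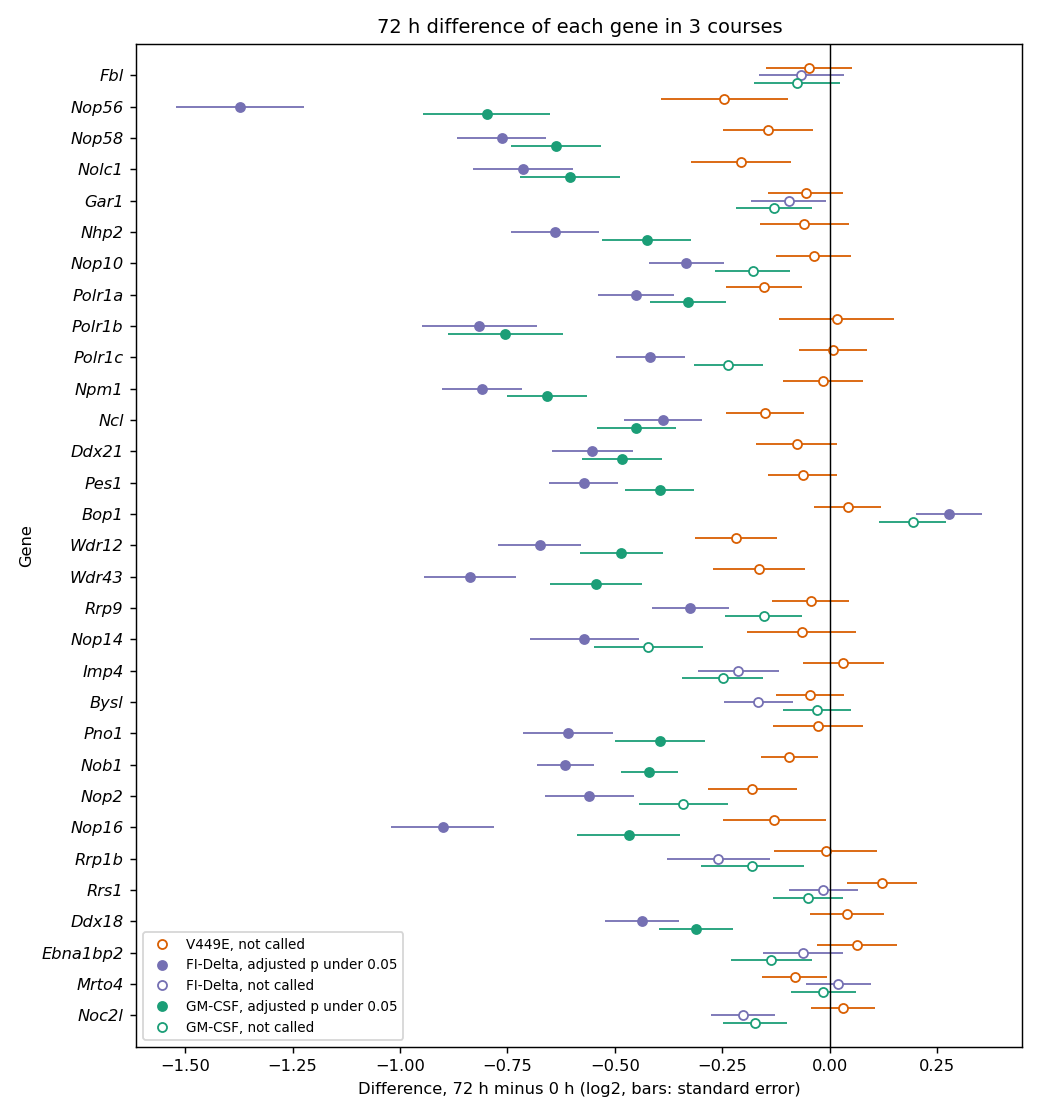
Difference of 72 h minus 0 h (log2, with standard error) for each of the 31 genes in V449E, FI-Delta and GM-CSF cells (parental cells as 0 h); filled points have an adjusted p under 0.05. The FI-Delta points reach -1.37 (Nop56), 1 point of FI-Delta lies above 0 and is filled (Bop1, 0.28), and no V449E point is filled.

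The return at 24 h and the second decline were tested as contrasts of their own; the comparison of 24 h with 12 h was added after the values had been seen. At 24 h the median of the 31 genes stood 0.18 above that at 12 h in V449E cells, 0.28 above in FI-Delta cells and 0.33 above in GM-CSF cells. In V449E cells 0 genes were called, against 0.0346% of all features, and unadjusted tests gave 11 higher (5.65% of all features). In FI-Delta cells 4 genes rose, Nop58, Wdr43, Bysl and Ddx18 (0.084% of all features rose). In GM-CSF cells 10 genes rose (1.24%), with Nop56 highest at 0.88. These counts leaned on single RNAs: in FI-Delta cells 0 genes were called without replicate 2 of 12 h or of 24 h and 1 without replicate 1 of 24 h, and in GM-CSF cells 0 without replicate 1 of 12 h, 2 without replicate 1 of 24 h and 6 without replicate 2 of 24 h.

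Between 24 h and 72 h, 17 genes fell in FI-Delta cells (2.04% of all features fell) and 18 in GM-CSF cells (2.18%). The median differences were -0.35 and -0.40, and Nop56 fell most in both, by 0.98 and by 1.18. In V449E cells the median was 0.00 and 0 genes were called, against 0.0198% of all features, with 1 lower in unadjusted tests (4.92% of all features). In FI-Delta cells the count was 10 and 3 without replicate 1 and replicate 2 of 24 h, and 4 and 11 without replicate 1 and replicate 2 of 72 h. In GM-CSF cells it was 11 without replicate 1 of 24 h and 10 without replicate 2 of 72 h.

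V449E cells were set directly against FI-Delta cells at each time. At 72 h 20 of the 31 genes were higher in V449E cells (9.04% of all features were higher) and 2 lower (7.78% lower), with a median difference of 0.35. Nop56 levels were 0.19 and -0.24 in V449E cells, against -1.08 and -0.77 in FI-Delta cells (difference 0.90, adjusted p = 0.000138). Polr1b levels were 0.40 and 0.00 in V449E cells, against -0.44 and -0.59 in FI-Delta cells (difference 0.71, adjusted p = 0.00059). Npm1 levels were 0.13 and 0.07 in V449E cells, against -0.46 and -0.66 in FI-Delta cells (difference 0.66, adjusted p = 2.49e-05). All V449E RNAs lay above all FI-Delta RNAs for these genes, though the V449E RNAs spread more for Nop56 and Polr1b. The 2 genes that were lower in V449E cells were Bop1 and Mrto4. Bop1 was at -0.05 and -0.09 in V449E cells, against 0.30 and 0.29 in FI-Delta cells (difference -0.36, adjusted p = 0.0017), and Mrto4 differed by -0.25 (adjusted p = 0.0265), a call lost without either V449E RNA or without replicate 1 of FI-Delta.

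At 48 h 6 genes were higher in V449E cells than in FI-Delta cells (3.55% of all features), namely Nop56, Nop58, Polr1b, Npm1, Wdr12 and Wdr43, and Bop1 was lower (4.7% of all features), though not without replicate 2 of V449E 48 h. The higher count was 1 without replicate 2 of V449E 48 h, 2 and 4 without replicate 1 and replicate 2 of FI-Delta 48 h, and 9 with replicate 1 of V449E 48 h left out. At 24 h Bop1 alone was called, lower by 0.33 in V449E cells (1.9% of all features were lower), and it was not called without either FI-Delta RNA or without replicate 2 of V449E. At 0, 6 and 12 h 0 genes were called, against 0.232%, 0.805% and 1.1% of all features. Unadjusted tests gave 0 genes at 0 h, 1 lower at 6 h (4.14% of all features), and 11 higher (4.71%) and 1 lower (5.2%) at 12 h.

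Because the lines may start from different levels, the change from 0 h was compared between lines as well. At 72 h the change of 13 genes was more positive in V449E than in FI-Delta cells (2.12% of all features), with a median difference between the changes of 0.42 over the 31 genes. The 13 were Nop56, Nop58, Nhp2, Polr1b, Polr1c, Npm1, Ddx21, Pes1, Wdr43, Pno1, Nob1, Nop16 and Ddx18. The difference was 1.13 for Nop56 (adjusted p = 0.00439), 0.83 for Polr1b (adjusted p = 0.0169) and 0.79 for Npm1 (adjusted p = 0.00177). Polr1b was not called without any 1 of 4 RNAs, replicate 1 of FI-Delta 0 h, replicate 2 of FI-Delta 72 h, replicate 2 of V449E 0 h and replicate 1 of V449E 72 h. The count was 3 without replicate 2 of V449E 0 h, 5 without replicate 1 of V449E 72 h, 4 without replicate 1 of FI-Delta 72 h, and 6 and 5 without replicate 1 and replicate 2 of FI-Delta 0 h. At 6, 12, 24 and 48 h 0 genes were called, against 0%, 0%, 0.00988% and 0.351% of all features. Unadjusted tests gave 0, 7, 1 and 10 genes with a more positive change in V449E cells at these times (0.42%, 0.869%, 1.84% and 3.69% of all features), and 1 with a more negative one at 48 h (4.08%).

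FI-Delta cells were set against GM-CSF cells in the same way. Nop56 at 24 h was the 1 gene called, lower by 0.73 in FI-Delta cells (adjusted p = 0.0395; 0.0494% of all features were lower), with levels of 0.11 and 0.00 in FI-Delta cells, against 0.95 and 0.61 in GM-CSF cells. This call was lost without any 1 of 3 RNAs, both of FI-Delta and replicate 1 of GM-CSF. At 6, 12, 48 and 72 h limma called 0 genes, against 0.514%, 0.311%, 0.351% and 0.983% of all features. The medians were -0.10, -0.17, -0.15 and -0.10. Unadjusted tests gave 8, 13, 11 and 8 genes lower in FI-Delta cells, against 3.15%, 3.03%, 4.48% and 6.63% of all features, and 0 higher. At 72 h the fit on array pairs called 4 genes lower, and its share of all features is not given here. Nop56 differed by -0.53 at 72 h (SE 0.15, adjusted p = 0.0878), so these data do not show that the cells are alike in this gene. When the changes from 0 h were compared between FI-Delta and GM-CSF cells, limma called 0 of the 31 genes at every time. The shares of all features called in that test were 0% at 6, 12 and 24 h and 0.00494% at 48 h and at 72 h, and unadjusted tests gave 3, 6, 7, 3 and 2 of the 31 genes with a more negative change in FI-Delta cells, against 0.692%, 0.835%, 1.24%, 1.06% and 1.99% of all features.

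At 0 h, with all cells in IL-3, limma called 0 of the 31 genes between V449E and parental cells (0.736% of all features were called) and 0 between FI-Delta and parental cells (0.109%). The median differences were -0.06 and 0.03, the differences ran from -0.18 to 0.19 and from -0.12 to 0.12, and unadjusted tests gave 0 genes in both. The fit on array pairs, whose share of all features is not given here, called 5 genes lower and 1 higher in V449E cells than in parental cells. V449E and parental cells were hybridised on both print runs for each replicate, and the median difference was -0.01 in replicate 1 and -0.14 in replicate 2.

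Other genes of the pathway were taken from a longer list that holds none of the 31. Of its 89 measured genes 44 fell in FI-Delta cells at 72 h, where 8.7% of all features fell, and 23 in GM-CSF cells, where 2.64% did. None of the 89 rose, against 6.89% and 3% of all features, and the medians were -0.25 and -0.18. The 5 with the largest called differences in FI-Delta cells at 72 h were Rcl1 (-1.02), Ppan (-0.81), Ruvbl2 (-0.74), Utp4 (-0.73) and Tbl3 (-0.68), and in GM-CSF cells they differed by -0.69, -0.61, -0.48, -0.42 and -0.35, of which Rcl1, Ppan and Utp4 were called. Rcl1 and the processome proteins Utp4 and Tbl3 serve the small subunit, Ppan the large subunit, and Ruvbl2 the assembly of snoRNPs. Rcl1 was at -0.75 and -0.77 in FI-Delta cells at 72 h, against 0.30 and 0.21 at 0 h, with no overlap. In V449E cells 5 of the 89 fell at 12 h (0.756% of all features) and 1 at 24 h (0.706%), and none was called at 72 h (0%).

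The proteins of the ribosome itself are given for comparison. Of 68 cytosolic ribosomal protein genes 8 fell in FI-Delta cells at 72 h and 2 in GM-CSF cells, with medians of -0.10 and -0.06. These counts lie near the shares of all features that fell, 8.7% and 2.64%. Of 72 mitochondrial ribosomal protein genes 24 fell in FI-Delta cells and 6 in GM-CSF cells, with medians of -0.20 and -0.09. At 12 h in FI-Delta cells, where 18 of the 31 biogenesis factors fell, 1 cytosolic ribosomal protein gene fell and 1 rose (3.36% and 1.84% of all features). These lists are described by counts and medians, and the differences between lists were not tested.

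Among factors of that list that serve RNA polymerase I, Taf1d, a subunit of its promoter selectivity factor, fell by 0.54 in FI-Delta cells and by 0.48 in GM-CSF cells at 72 h. The subunit genes Polr1d and Polr1e fell by 0.39 and 0.37 in FI-Delta cells. In GM-CSF cells Polr1e fell by 0.42, and Polr1d differed by -0.18 and did not pass. Ubtf, Rrn3, Taf1a, Taf1b and Taf1c, which load the polymerase onto ribosomal DNA, differed by -0.30, -0.13, 0.06, 0.16 and 0.19 in FI-Delta cells at 72 h and were not called there or in GM-CSF cells.

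Myc fell early in both mutant lines. At 6 h it was at -0.27 and -0.37 in V449E cells, against 0.57 and 0.46 at 0 h (difference -0.83, adjusted p = 0.00803). FI-Delta cells at 6 h held it at -0.47 and -0.85, against 0.30 and 0.34 at 0 h (difference -0.98, adjusted p = 0.00312). At 72 h Myc was at -0.26 and -0.28 in FI-Delta cells, against 0.30 and 0.34 at 0 h (difference -0.59, adjusted p = 0.012). The GM-CSF levels of Myc at 72 h were -0.16 and 0.02, against -0.17 and 0.12 in parental cells, a difference of -0.04 that did not pass. Earlier GM-CSF levels of Myc are not given here, so the early fall is not shown to be particular to the mutant lines. Both parental levels of Myc lay below the 0 h levels of V449E and FI-Delta cells, so the courses did not start alike. Mxd1, a MAX partner that represses MYC sites, rose by 1.21 in FI-Delta cells and by 1.01 in GM-CSF cells at 72 h. Mxd1 also rose by 1.42 in V449E cells at 6 h, and at 72 h it differed by -0.56 and was not called. Of the related genes that were read, Mxi1 rose by 0.43 in FI-Delta cells at 72 h. Mycn, Max, Mxd3, Mxd4, Mnt and Mlx were not called there, with differences between -0.07 and 0.14. Whether any of these genes acts on the biogenesis factors was not tested.

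Maturation markers and replication genes were read in the same comparisons, in which 8.7% of all features fell and 6.89% rose in FI-Delta cells at 72 h, and 2.64% fell and 3% rose in GM-CSF cells. At 72 h 6 of 9 macrophage markers rose in FI-Delta cells and 8 of 9 in GM-CSF cells, and 5 and 3 of 11 late granule (neutrophil) markers rose. Of 7 mast cell and basophil markers 4 fell in FI-Delta cells and 4 in GM-CSF cells, with medians of -0.70 and -1.03, and of 5 progenitor markers 3 and 2 fell. In V449E cells at 24 h 3 macrophage markers rose (0.672% of all features), no late granule marker was called, and the mast cell and basophil median was -0.11. None of 5 primary granule (promyelocyte) markers was called in FI-Delta or GM-CSF cells at 72 h, with medians of 0.20 and -0.33. No marker of these lists was called in FI-Delta cells at 12 h. Of the genes of the replicative helicase, Mcm2 to Mcm7, 4 of 6 fell in FI-Delta cells at 72 h (median -0.50) and 0 in GM-CSF cells (median -0.27). Erythroid and lymphoid markers had medians between -0.05 and 0.00 in both courses at 72 h, and 1 of the 4 erythroid markers fell in GM-CSF cells. The part of the cell mix or of proliferation in the biogenesis results was not tested.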

How the data were processed

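The deposited values are 1 log2 ratio per probe and array, read as log2 because base and direction are not stated; per the labels' descriptions the authors normalised each array and then sorted all probes into the order of print run 2, and per the submitters' processing notes limma was used. Background correction and normalisation method are not given in the sources used here. Of 23040 probes 1243 controls were left out. Symbols came from the platform annotation, with 4 updated; 16651 probes had 1 symbol, 137 several and 5009 none. Probes of 1 symbol were averaged, giving 20242 features with the unnamed probes.

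Each of the 58 dye-swap pairs was averaged with signs turned, and least squares within each replicate number gave 36 RNA levels. RNAs of different replicate numbers never shared an array, and the replicate block of the fit counts only the degree of freedom used by centring. Conditions were compared with limma 3.58.1 (lmFit, eBayes, R 4.3.3; 17 residual and 5.785 prior degrees of freedom), 2-sided, with Benjamini-Hochberg adjustment over all features within a comparison. The level of an RNA rests on 4 to 16 arrays, which limits the precision; signal intensities were not used. Dye-swapped arrays correlated at -0.653 to -0.0327 across probes, and array medians ran from -0.012 to 0.0067. The fit was also run on simulated data in which only FI-Delta cells at 72 h were changed. Its outcome is not given here, so it lends no weight to the calls. Print run 1 holds 90 arrays and run 2 holds 26.

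The 31 genes, the lists and the tests were chosen with earlier results of these data known. Every measured gene is named with its 72 h differences in FI-Delta and GM-CSF cells and its V449E 24 h difference; levels of single RNAs are given for the 1 or 2 genes per role with the largest FI-Delta difference at 72 h, for a gene called against the majority, and where probes differ in sign. Myc was described as a regulator of the pathway. Alternatives were no replicate block, direct arrays, a fit on array pairs, print run 1, the median of probes, adjustment over named features, a dye effect, and leaving out each RNA.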

Additional observations from a re-analysis of the deposited data

Results flagged for a closer look

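On 1 array the median of the 31 genes stood apart from the other arrays of its comparison. It compared V449E with FI-Delta cells at 12 h (replicate 1, V449E in Cy5, print run 1), and the median was -0.015 there. The test was made in 28 comparisons, and chance gives such a gap in about 1 of 20 groups. No gene was called in that comparison.

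The 72 h change of 13 of the 31 genes differed between V449E and FI-Delta cells, all more positive in V449E cells, by a contrast of the limma fit. In that test 2.12% of all features had a more positive change at 72 h, and the count of genes was smaller when single RNAs were left out, as given above. At 6, 12, 24 and 48 h the same test called 0 of the 31 genes, but it also called only 0%, 0%, 0.00988% and 0.351% of all features.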

How the results depend on the processing

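Of the 7 main comparisons, the number of genes that fell in FI-Delta cells at 72 h (21) ran from 18 to 24 over the alternatives, and the number higher in V449E than in FI-Delta cells at 72 h (20) from 14 to 22. With no replicate block 18 genes fell in GM-CSF cells at 72 h instead of 16, and the other main counts were the same. The GM-CSF count was 12 on direct arrays, 12 on print run 1 alone, 20 in the fit on array pairs, and 9 to 15 when each RNA was left out. The fit on array pairs, which counts dye-swap pairs as samples, called 2 genes lower in V449E cells at 24 h, 4 lower in FI-Delta than in GM-CSF cells at 72 h, and 5 lower and 1 higher in V449E than in parental cells at 0 h, where the main counts were 0. Direct arrays called 1 lower in the last of these. The fit on array pairs has 41 residual degrees of freedom, against 17 in the main fit. For neither alternative is the share of all features called given here, so these counts have no background beside them. Leaving out single RNAs gave 0 to 1 genes that rose in FI-Delta cells at 72 h (main count 1), and 1 to 2 that were lower in V449E than in FI-Delta cells (main count 2). For single genes in these comparisons, 2292 alternative values kept the main outcome, called or not called. Another 62 lost a call and 33 gained one, and no called value changed sign. The 2292 include genes called in neither fit, so they do not give the share of calls that held. Print run 1 alone leaves 1 RNA in each GM-CSF condition, because replicate 2 of that course was hybridised on print run 2. GM-CSF counts from run 1 alone, in the main comparisons and between 24 h and 72 h, therefore rest on fewer RNAs. Other causes of the differences between settings were not tested. With 2 RNAs per condition a single RNA decides many of the calls before 72 h, and signal over background is unknown.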
